A study of Mus musculus with 6 samples.

Results

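The proteasome genes described here are the 44 rows of a quadriceps RNA sequencing table whose symbol is Psm followed by a letter from a to g and a number, out of 11768 listed genes. The rule takes rows by symbol alone and uses no measured value, but it was set with earlier results of these data known. All 44 belong to structural groups of the particle that together name 48 genes, and Psma8, Psmb9, Psmb11 and Psmg4 were not found among the listed genes. The table lists only genes above 0 log2 CPM in every library (lowest value 0.03), where CPM is reads scaled to a common library total, so these 44 are the members that passed that floor.

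The study compared quadriceps muscle of Control f/f mice, which carry the floxed gene, with muscle of mDrp1HET mice (mouse model Drp1-KD), muscle-specific heterozygous knockouts of Drp1, the GTPase that divides mitochondria. All mice were on a normal chow diet, and no label states the age, the sex or the promoter that drives the deletion. Total RNA with an integrity number above 7 was depleted of ribosomal RNA and made into stranded libraries, 3 labelled Control and 3 labelled mDrp1HET, which were sequenced in 2 pools. Each library has its own number in the labels, which do not say whether the numbers stand for separate animals. Except where a library is entered under both labels (described next), the p-values below therefore reflect the spread among libraries, which may be technical.

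Control replicate 1 and mDrp1HET replicate 3 held 1 library deposited under both labels. The first had exactly 2 times the reads of the second in 11334 genes (96.3%), and at most 81 genes showed this in any other pair of libraries. Their counts differed by less than the sampling noise (chi-square per gene 0.00367, against 52.8 to 253 for the other pairs), so they count as 1 sample, called the shared library below, and the labels do not settle its group. All members were tested in the labelled comparison of 3 columns with 3, in which the shared library stands on both sides. The labelled fit took these columns as separate libraries. Labelled p-values with both columns in, also those with array weights, therefore do not measure the spread among separate libraries. All members were also tested in the 4-library comparison of Control replicates 2 and 3 with mDrp1HET replicates 1 and 2. It gives the fold changes below unless the labelled one is named. Reads assigned to the listed genes numbered 28664508 and 25019293 in these Control libraries, 15782298 and 10394761 in these mDrp1HET libraries, and 64728022 in Control replicate 1. Dnm1l, the gene for Drp1, had levels of 6.95 and 6.87 log2 CPM in Control replicates 2 and 3, at 7.30 and 6.73 in mDrp1HET replicates 1 and 2 and at 6.69 in the shared library. With a 4-library log2 fold change of 0.11 (limma adjusted p = 0.843, SE 0.23, 95% interval -0.40 to 0.62), Dnm1l transcripts were not detectably lower under the mDrp1HET label, and every direction below is one between labels.

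The proteasome is the barrel-shaped protease that degrades proteins tagged with ubiquitin. Its core particle (20S) stacks rings of alpha subunits, which form the gate, on rings of beta subunits, some of which cut proteins, and its regulatory particle (19S) uses a ring of ATPases to unfold substrates and non-ATPase subunits to bind and trim ubiquitin chains. Dedicated chaperones build both particles, alternative caps can replace the regulatory particle, and immune signals exchange the cutting subunits for inducible ones. In skeletal muscle the ubiquitin-proteasome pathway breaks down much of the contractile protein during wasting, and its subunit genes are driven together by the transcription factor Nrf1 (gene Nfe2l1) through antioxidant response elements.

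Short stretches of member promoters are shown because 3 kinds of element are known to drive proteasome genes or their inducible members, and the members that carry a match include some with the largest and some with the smallest differences described below. They were read from the RefSeq promoter table (GRCm38.p6, 250 bases before to 50 after each annotated start), in which 37 of the 44 members had an entry, and both strands were searched. The antioxidant response element core TGACNNNGC was found for 6 of the 37 members (Psmb5, Psmb6, Psmc6, Psmd9, Psmd12 and Psme4), against 14.0% of all 27025 genes with a promoter and 17.0% of the 9133 listed genes that have one. The interferon element GAAANNGAA was found for 6 members (Psmb3, Psmb4, Psmc2, Psmd4, Psmd9 and Psme1), against 9.76% of all and 8.65% of listed genes, and the gamma-activated site TTCNNNGAA for 3 (Psmb8, Psmd2 and Psmg1), against 9.55% and 8.22%. These shares were not tested. Psmd9 held 2 of the motifs, at separate places. Capitals mark the match, each stretch is printed 5′ to 3′ on the strand of its gene, and a match on the other strand appears as its reverse complement.
Psmc6, antioxidant core on the other strand, chr14:45329574-45329640, plus strand: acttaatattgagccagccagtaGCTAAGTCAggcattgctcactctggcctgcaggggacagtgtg
Psmb5, antioxidant core, chr14:54617999-54618077, minus strand: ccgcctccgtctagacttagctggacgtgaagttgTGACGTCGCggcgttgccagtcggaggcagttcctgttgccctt
Psmd9, antioxidant core, chr5:123228124-123228189, plus strand: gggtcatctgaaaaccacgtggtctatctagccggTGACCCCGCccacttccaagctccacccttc
Psmb3, interferon element on the other strand, chr11:97703237-97703315, plus strand: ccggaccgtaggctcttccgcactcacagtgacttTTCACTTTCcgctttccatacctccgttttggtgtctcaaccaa
Psmb8, gamma-activated site, chr17:34198063-34198141, plus strand: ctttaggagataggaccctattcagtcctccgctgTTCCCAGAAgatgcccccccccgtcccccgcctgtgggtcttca
The match began 227 bases before the annotated start in Psmc6, 47 in Psmb5, 31 in Psmd9, 162 in Psmb3 and 97 in Psmb8.

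Across the 44 members, 0 passed the threshold of 0.05 in either comparison (limma, Benjamini-Hochberg adjusted over all genes). The lowest adjusted p was 0.141 in the 4-library comparison, where 22 genes of the table were called (0.187%), and 0.753 in the labelled one, where 0 were (0%). At an unadjusted p under 0.05 in the 4-library comparison, 6 members lay higher in mDrp1HET (13.6%, against 13.3% of all genes) and 0 lower (against 3.26%). With each library centred on its median, 4 members lay higher and 2 lower (9.09% and 4.55%, against 9.20% and 7.59% of all genes). Leaving out single libraries moved these counts. Without mDrp1HET replicate 2, 16 members lay higher (36.4%, against 19.8%) and 0 lower, and without mDrp1HET replicate 1, 4 lay higher (9.09%, against 8.26%) and 1 lower. Without Control replicate 2, 4 lay higher (9.09%, against 11.3%), and without Control replicate 3, 1 did (2.27%, against 3.65%), with 0 lower in both. Labelled, 2 members lay higher and 0 lower at that level, beside 358 and 101 genes of the table (4.55% against 3.04% higher, 0% against 0.858% lower). With array weights 9 lay higher and 8 lower (20.5% and 18.2%, against 24.2% and 9.19% of all genes). With the shared library counted once, as Control, 10 members lay higher and 1 lower at that level (22.7% and 2.27%, against 19.9% and 4.22%, lowest limma adjusted p = 0.0778). Counted once, as mDrp1HET, 2 lay higher and 0 lower (4.55% and 0%, against 2.78% and 1.04%, lowest limma adjusted p = 0.970). Both mDrp1HET libraries lay above both Control libraries for 17 members (38.6%, against 38.6% of all genes) and below both for 4 (9.09%, against 11.3%). These shares without overlap are near those of the whole table. The shared library lay below both mDrp1HET libraries for 14 of the 17, against 91.6% of such genes in the table, and above both for 3 of the 4, against 76.5%.

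The median log2 fold change of the members was 0.18, which is 0.03 below that of all genes (0.20), and 31 of 44 values were above 0 (70.5%, against 69.6% of all genes). In the labelled comparison the median was 0.12, against 0.13 for all genes, and with the shared library on both sides labelled fold changes are drawn toward 0. The labelled medians were 0.33 for the alpha ring, 0.21 for the constitutive beta ring, -0.07 for the ATPases and 0.09 for the non-ATPase subunits. In bulk muscle, fewer cells of a type and less RNA per cell cannot be told apart. The mDrp1HET libraries also differed from each other, with 41 of 44 members higher in replicate 1 than in replicate 2 (93.2%, against 71.6% of all genes). The summed level of the members was 3381 and 3348 CPM in Control replicates 2 and 3, 4240 and 3310 CPM in mDrp1HET replicates 1 and 2 and 3463 CPM in the shared library. Replicate 1 of mDrp1HET thus stood apart upward, and replicate 2 lay just below both Control libraries. The shared library was nearer the Control mean than the mDrp1HET mean for 31 of 44 members (70.5%, against 73.3% of all genes).

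**Figure D1:**
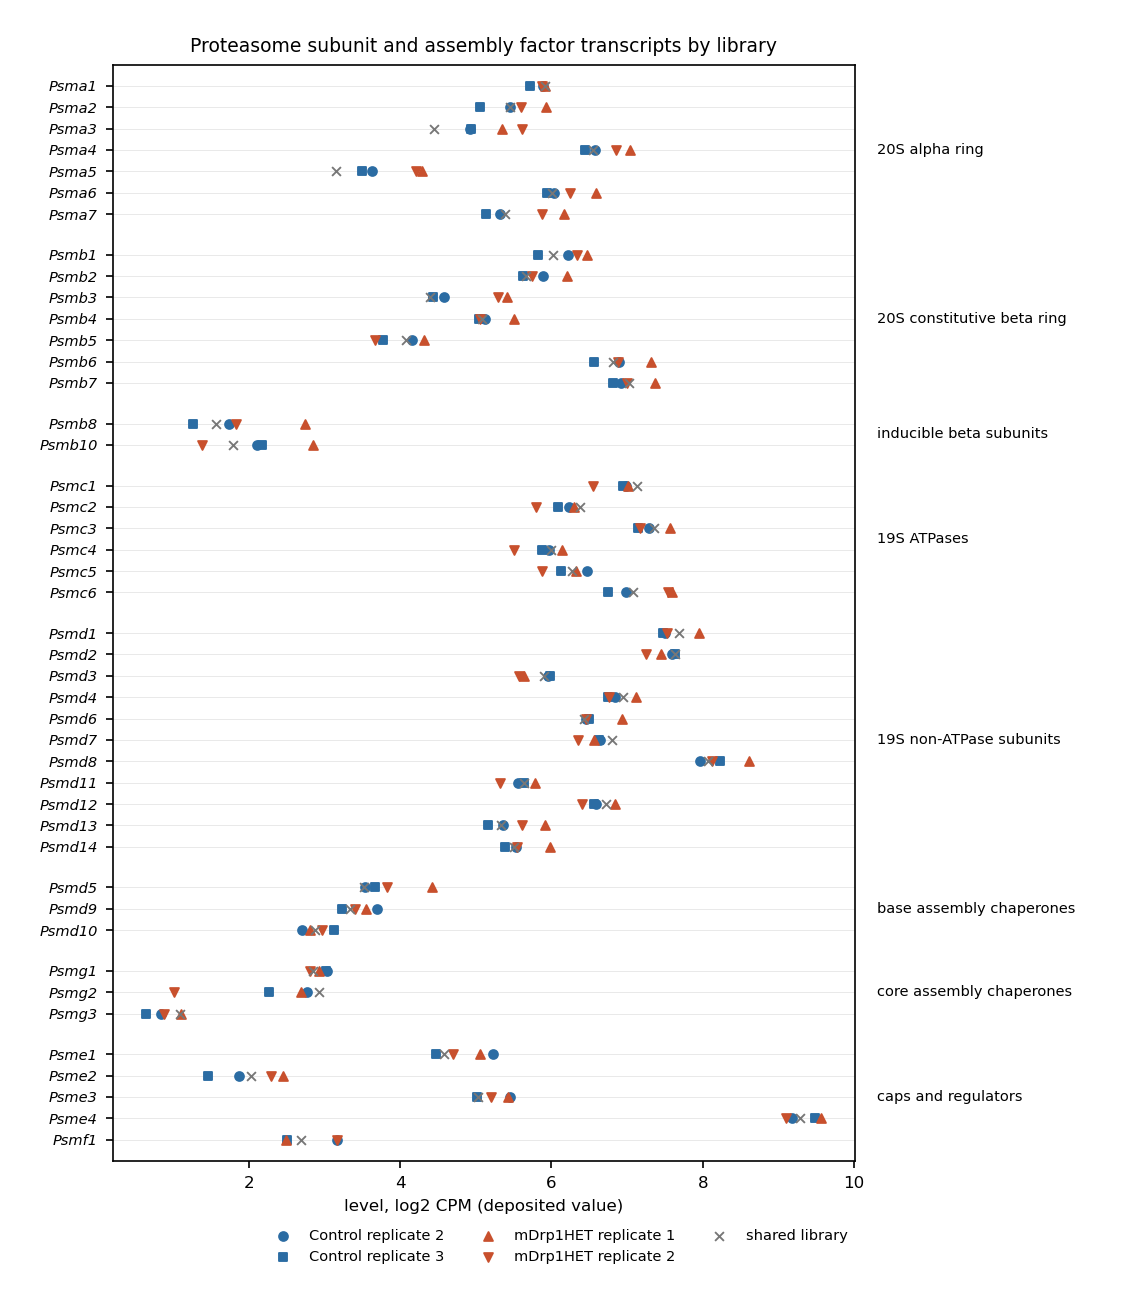
Level of each of the 44 members in log2 CPM (x axis) by structural group, with 1 symbol per library: blue for Control replicates 2 and 3, red for mDrp1HET replicates 1 and 2, and a grey cross for the shared library. Groups overlap for 23 members, and the upward red triangles (mDrp1HET replicate 1) lie right of the downward ones (replicate 2) for 41 of 44.

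Subunits of the core particle mostly lay above the median of all genes. All 14 measured alpha and constitutive beta subunits had a 4-library log2 fold change above 0, with a median of 0.40, and 11 of the 14 lay above the median of all genes. With median centring 12 of the 14 were above 0, with quantile normalization 12, and with median-of-ratios size factors 11, and when single libraries were left out 11 to 14 were above 0. With the GC trend removed the median of the 14 lay 0.11 above that of all genes, against 0.20 as deposited. The number above the all-gene median was between 10 and 13 of 14 under the alternatives run in the 4-library comparison. In the labelled comparison it was 9 with array weights. The 6 ATPases of the regulatory particle had a median of -0.11, with 2 of 6 above 0 and 1 of 6 above the all-gene median. Without mDrp1HET replicate 2 all 6 ATPases were above 0 and 2 were above the all-gene median. The difference between the rings was not tested, and 0 of these 20 genes passed the threshold.

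In the alpha ring, whose tails gate the entry to the core, both mDrp1HET libraries lay above both Control libraries for 6 of 7 measured subunits (38.6% of all genes), and 3 of 7 had an unadjusted p under 0.05 (13.3% of all genes were higher at that level). Psma7 (Entrez 26444, chromosome 2, 180036367 to 180042464), an alpha subunit also known to bind several signalling proteins, had 5.32 and 5.14 log2 CPM in Control replicates 2 and 3, at 6.17 and 5.88 in mDrp1HET replicates 1 and 2 and at 5.38 in the shared library. Both mDrp1HET libraries were above the other 3. The difference was 0.79 on the log2 scale (limma adjusted p = 0.154, 95% interval 0.30 to 1.28, SE 0.22). Without mDrp1HET replicate 2 it was 0.94 and passed (adjusted p = 0.0456), the single such call among the alternatives run on the members. Psma5 (chromosome 3) stood at 3.64 and 3.50 in Control, at 4.29 and 4.21 in mDrp1HET and at 3.15 in the shared library, with a log2 fold change of 0.68 (limma adjusted p = 0.235, SE 0.25). The groups did not overlap, and the shared library lay on the far side of Control. Psma3, which the rule for naming did not take, was likewise lowest in the shared library (4.45), with 4.92 and 4.94 in Control, 5.35 and 5.61 in mDrp1HET and a log2 fold change of 0.55 (limma adjusted p = 0.264, SE 0.22). Psma1 showed the smallest difference of the ring, with 5.89 and 5.72 in Control, 5.92 and 5.88 in mDrp1HET and 5.91 in the shared library. The log2 fold change of 0.10 (95% interval -0.37 to 0.56) turned below 0 with median centring, quantile normalization, median-of-ratios size factors and removal of the trend on GC content. The remaining members of the ring, Psma2, Psma4 and Psma6, had log2 fold changes of 0.50, 0.43 and 0.43, none of them called. The ring had a median transcript GC content of 44.98%, against 49.95% for all genes. With the GC trend removed, the labelled differences of Psma7, Psma5 and Psma1 were 0.57, 0.45 and -0.04, against 0.53, 0.45 and 0.07 as deposited.

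Among the constitutive beta subunits, Psmb3 had the lowest p of all members. Psmb3 (Entrez 26446, chromosome 11, 97703434 to 97713500) is a structural beta subunit with no cutting activity. Its transcripts stood at 4.59 and 4.44 log2 CPM in Control, at 5.41 and 5.29 in mDrp1HET and at 4.40 in the shared library. Both mDrp1HET libraries lay well above the other 3, which were close together. The log2 fold change was 0.84 (limma adjusted p = 0.141, 95% interval 0.34 to 1.34, SE 0.23) in the 4-library comparison and 0.56 (limma adjusted p = 0.753) as labelled. Psmb3 also has the most near-identical copies among the members, 6 other annotated genes that match at least 50% of its transcript at 90% identity or more, and the labels do not say how reads shared with copies were counted.

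The cutting subunits differed less than Psmb3, as did the structural subunits Psmb1, Psmb2 and Psmb4. Psmb5, which cuts after hydrophobic residues and is the target of proteasome inhibitor drugs, stood at 4.17 and 3.78 in Control, at 4.32 and 3.67 in mDrp1HET and at 4.08 in the shared library, and the groups overlapped. The log2 fold change came to 0.02 (95% interval -0.62 to 0.67), and its sign turned with median centring and with other settings. Psmb6, which cuts after acidic residues, stood at 6.89 and 6.56 in Control, at 7.31 and 6.88 in mDrp1HET and at 6.81 in the shared library (log2 fold change 0.37, limma adjusted p = 0.431, SE 0.23). Here mDrp1HET replicate 2 lay between the Control libraries. Psmb7, which cuts after basic residues, stood at 6.92 and 6.82 in Control, at 7.37 and 7.00 in mDrp1HET and at 7.03 in the shared library (log2 fold change 0.31, limma adjusted p = 0.482, SE 0.21). Its groups did not overlap, though the shared library lay between the mDrp1HET libraries. Psmb1, a structural subunit, had 6.23 and 5.83 in Control, 6.47 and 6.34 in mDrp1HET and 6.02 in the shared library (log2 fold change 0.38, SE 0.22, and 0.24 with the GC trend removed). The structural subunits Psmb2 and Psmb4 had log2 fold changes of 0.22 and 0.19 with overlapping groups.

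**Figure D2:**
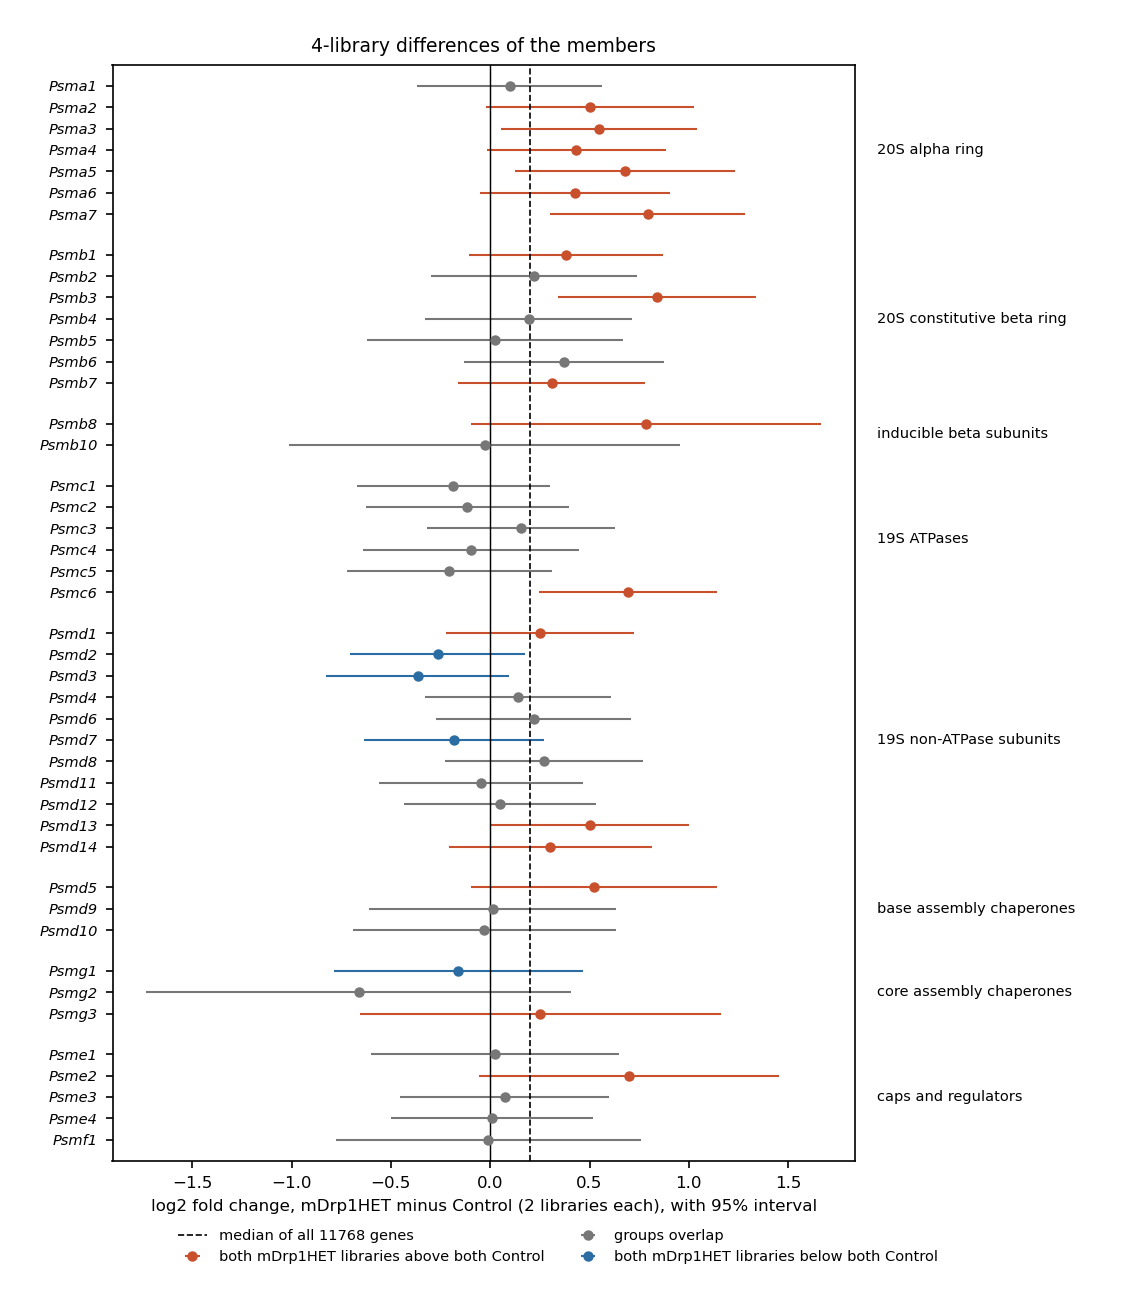
Log2 fold change of each member in the 4-library comparison (points) with its 95% interval (bars), mDrp1HET minus Control, 2 libraries each. Red marks members whose mDrp1HET libraries both lay above Control (17), blue those below (4) and grey those that overlapped (23). The solid line is 0 and the dashed line the median of all genes, 0.20.

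Of the inducible subunits, which replace the constitutive cutting subunits in immune cells and under interferon, Psmb8 and Psmb10 were listed, at low levels. Psmb8 (Entrez 16913, chromosome 17, 34198195 to 34201454), the inducible counterpart of Psmb5, stood at 1.75 and 1.27 log2 CPM in Control, at 2.75 and 1.84 in mDrp1HET and at 1.57 in the shared library. The groups did not overlap, but mDrp1HET replicate 2 lay only just above Control replicate 2, on 37 reads (exact Poisson 95% interval 26.1 to 51.0, counting error only). The difference of 0.79 on the log2 scale did not pass (limma adjusted p = 0.348, 95% interval -0.10 to 1.67, SE 0.40), and it was 0.33 without mDrp1HET replicate 1 and 1.24 without replicate 2. Psmb10, the counterpart of Psmb7, stood at 2.12 and 2.18 in Control, at 2.85 and 1.38 in mDrp1HET and at 1.79 in the shared library, so that the mDrp1HET libraries were the highest and the lowest. The log2 fold change was -0.03 (95% interval -1.01 to 0.95), and mDrp1HET replicate 2 held 27 reads.

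Per kilobase of transcript, Psmb8 amounted to 10.3% and 9.69% of Psmb5 in Control replicates 2 and 3, to 18.6% and 15.5% in mDrp1HET replicates 1 and 2 and to 9.70% in the shared library. Psmb10 amounted to 3.16% and 3.55% of Psmb7 in Control, 3.87% and 1.81% in mDrp1HET and 2.35% in the shared library. The share of Psmb8 was higher in both mDrp1HET libraries than in the other 3, while that of Psmb10 overlapped. These ratios were not tested. In mDrp1HET replicate 2, Psmb5 was at its lowest, at 14.1 CPM per kilobase against 19.96 and 15.3 in Control replicates 2 and 3. Psmb8 stood there at 2.19, against 2.06 and 1.48 in these Control libraries, so the share of 15.5% rests partly on the lower Psmb5. In mDrp1HET replicate 1 both genes were at their highest, Psmb8 at 4.13 and Psmb5 at 22.2. Psmb5 also has 2 near-identical copies in the annotation. Leukocytes use the inducible subunits, and their markers are given beside them. Of 15 measured leukocyte and macrophage markers of 16 listed, 0 were called and 11 lay higher in both mDrp1HET libraries (38.6% of all genes). Their median log2 fold change lay 0.52 above that of all genes, against 0.48 for fibro-adipogenic markers. The summed level of the leukocyte markers was 491 and 279 CPM in Control, 612 and 539 CPM in mDrp1HET and 390 CPM in the shared library. The defining markers were present, with Ptprc, the pan-leukocyte phosphatase CD45, at 3.50 and 2.40 log2 CPM in Control, 4.23 and 3.80 in mDrp1HET and 3.21 in the shared library. The log2 fold changes of the 15 markers ran from -0.02 (Cd68) to 1.06 (Ptprc), and the groups overlapped for 4. Csf1r, the other defining marker, had 0.48. The part of leukocytes in the values of Psmb8 was not tested.

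**Figure D3:**
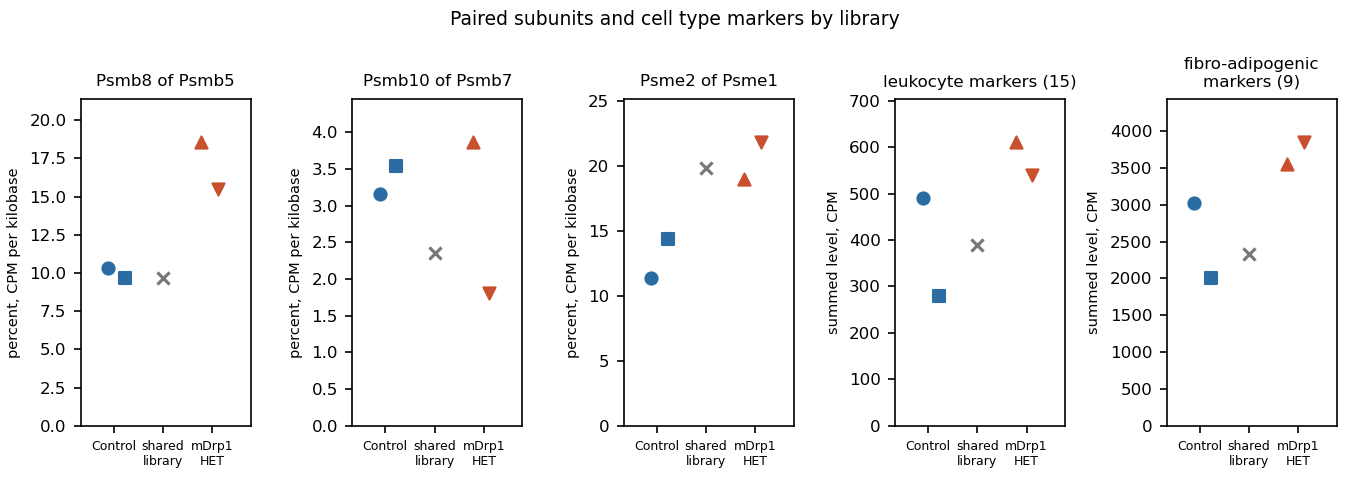
Left to right, the level of Psmb8 as a percent of Psmb5, of Psmb10 as a percent of Psmb7 and of Psme2 as a percent of Psme1, each in CPM per kilobase, and the summed CPM of 15 leukocyte and 9 fibro-adipogenic markers, by library, with the symbols and colours of the plot of levels (blue Control, red mDrp1HET, grey shared). Psmb8 is at 18.6% and 15.5% of Psmb5 in mDrp1HET and at 9.69% to 10.3% in the other libraries. Psmb5 itself is lowest in mDrp1HET replicate 2, at 14.1 CPM per kilobase, and Psmb8 rests on 37 reads there.

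The ATPases of the regulatory particle were not alike in direction. Psmc6 (Entrez 67089, chromosome 14, 45329823 to 45349074), a base ATPase, stood at 6.99 and 6.75 log2 CPM in Control, at 7.59 and 7.54 in mDrp1HET and at 7.07 in the shared library. Both mDrp1HET libraries were above the other 3 and within 0.05 of each other. Psmc6 had a log2 fold change of 0.70 (limma adjusted p = 0.169, 95% interval 0.25 to 1.14, SE 0.20). Its transcript has a GC content of 37.0%, and with the GC trend removed the difference was 0.31, and 0.21 against 0.46 in the labelled comparison. The other 5 ATPases overlapped between the groups, with log2 fold changes from -0.21 to 0.16. Psmc5, an ATPase whose tail docks on the alpha ring, stood at 6.47 and 6.13 in Control, at 6.32 and 5.87 in mDrp1HET and at 6.27 in the shared library (log2 fold change -0.21, limma adjusted p = 0.689, SE 0.24). Psmc4 stood at 5.97 and 5.87 in Control, at 6.14 and 5.50 in mDrp1HET and at 5.99 in the shared library (log2 fold change -0.10, limma adjusted p = 0.871, SE 0.25). For both genes the sign turned without mDrp1HET replicate 2, and for Psmc4 it also turned with the GC trend removed.

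The 11 non-ATPase subunits spread to both sides, with a median 0.06 below the all-gene median and 0 called. Without overlap, 3 lay higher and 3 lower (38.6% and 11.3% of all genes). Psmd13, a scaffold subunit of the lid, stood at 5.37 and 5.16 in Control, at 5.91 and 5.61 in mDrp1HET and at 5.33 in the shared library (log2 fold change 0.50, limma adjusted p = 0.298, SE 0.23). Psmd3, another lid scaffold subunit (chromosome 11), lay the other way, at 5.95 and 5.99 in Control, 5.64 and 5.57 in mDrp1HET and 5.90 in the shared library. The shared library was close to Control, and the log2 fold change was -0.37 (limma adjusted p = 0.398, 95% interval -0.83 to 0.09, SE 0.21). It was -0.16 with the GC trend removed and -0.58 with median-of-ratios size factors. Outside the naming rule, Psmd2, the large base subunit that receives shuttle factors, and Psmd7, the partner of the deubiquitinase Psmd14, were also lower in both mDrp1HET libraries, with log2 fold changes of -0.27 and -0.18. Psmd14 itself, which cuts ubiquitin chains off the substrate, had a log2 fold change of 0.30, and the ubiquitin receptor Psmd4 0.14. Psmd11, a lid subunit that helps set how much active proteasome a cell holds, showed the smallest difference of the group, with 5.55 and 5.64 in Control, 5.78 and 5.32 in mDrp1HET, 5.64 in the shared library and a log2 fold change of -0.05 (95% interval -0.56 to 0.47).

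Of the chaperones that build the particle, 0 of 6 measured were called. Of those that assemble the ATPase base, Psmd5 stood at 3.54 and 3.66 in Control, at 4.43 and 3.82 in mDrp1HET and at 3.52 in the shared library (log2 fold change 0.52, limma adjusted p = 0.370, SE 0.28), without overlap. Without mDrp1HET replicate 1 its value was 0.22, and without replicate 2 it was 0.82. Psmd9 and Psmd10 (gankyrin) overlapped. Psmd9 stood at 3.70 and 3.23 in Control, 3.55 and 3.40 in mDrp1HET and 3.34 in the shared library (log2 fold change 0.01, 95% interval -0.61 to 0.63). Psmd10 stood at 2.71 and 3.13 in Control, 2.82 and 2.96 in mDrp1HET and 2.87 in the shared library (log2 fold change -0.03, 95% interval -0.69 to 0.63). These intervals leave room for differences of 0.6 in either direction.

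The core chaperones gave 3 different orders of the libraries. Psmg1 and Psmg2 form the pair that starts the alpha ring, and Psmg3 works with a further partner beneath it. Psmg2 stood at 2.78 and 2.26 in Control, at 2.69 and 1.02 in mDrp1HET and at 2.93 in the shared library. Its log2 fold change of -0.66 (limma adjusted p = 0.512, SE 0.49) came from mDrp1HET replicate 2 alone, where 21 reads set the level between 0.32 and 1.63 log2 CPM (exact Poisson 95% interval), and the sign turned without that library. Psmg1 stood at 3.04 and 3.03 in Control, at 2.93 and 2.81 in mDrp1HET and at 2.85 in the shared library (log2 fold change -0.16, limma adjusted p = 0.802, SE 0.29). Psmg3 stood at 0.84 and 0.65 in Control, at 1.11 and 0.88 in mDrp1HET and at 1.10 in the shared library (log2 fold change 0.25, limma adjusted p = 0.789, SE 0.41). Neither overlapped between the groups, and both gaps were smaller than the counting error of the shallowest library, which held 73 and 19 reads.

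Among the caps, Psme1 and Psme2 together form the interferon-inducible PA28 ring, and their genes lie 5912 bases apart on chromosome 14 (RefSeq GRCm38.p6). Psme1 stood at 5.23 and 4.48 in Control, at 5.06 and 4.70 in mDrp1HET and at 4.58 in the shared library, a log2 fold change of 0.02 (95% interval -0.60 to 0.65) with both mDrp1HET libraries between the Control ones. Psme2 stood at 1.88 and 1.47 in Control, at 2.45 and 2.30 in mDrp1HET and at 2.03 in the shared library, which lay between the groups (log2 fold change 0.70, limma adjusted p = 0.333, 95% interval -0.05 to 1.45, SE 0.34). Per kilobase Psme2 amounted to 11.3% and 14.3% of Psme1 in Control, 18.96% and 21.9% in mDrp1HET and 19.8% in the shared library. Psme2 has 2 near-identical copies in the annotation (identity up to 99.4%), 1 of them named Psme2b, so its low level is uncertain. Psme3, the nuclear PA28 gamma, stood at 5.46 and 5.02 in Control, 5.43 and 5.20 in mDrp1HET and 5.03 in the shared library (log2 fold change 0.07, SE 0.24). Psmf1, first described as an inhibitor of the core, stood at 3.17 and 2.51 in Control, 2.50 and 3.16 in mDrp1HET and 2.69 in the shared library (log2 fold change -0.01, SE 0.35), nearly the same range in both groups. Psme4, the large PA200 cap, had the highest level of all members in log2 CPM, from 9.10 to 9.56 across the groups, and a log2 fold change of 0.01 (SE 0.23).

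**Figure D4:**
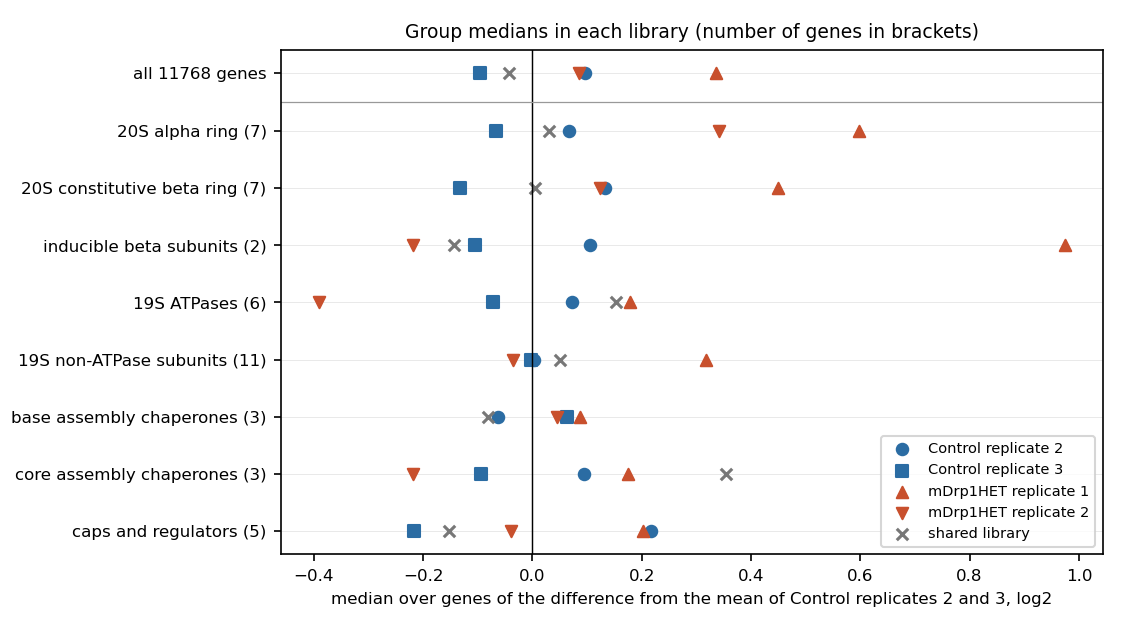
For each structural group and for all genes, the median over genes of the difference from the mean of Control replicates 2 and 3 (x axis, log2), with 1 symbol per library. In mDrp1HET replicates 1 and 2 the alpha ring is at 0.60 and 0.34 and all genes at 0.34 and 0.09, while the ATPases are at 0.18 and -0.39.

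The order of the members per kilobase of transcript, averaged over the 5 separate libraries, ran from Psmd8, a lid subunit, at 197 CPM per kilobase, through Psmb6 at 151 and Psmb7 at 114, to Psmb8 at 2.34, Psmg3 at 2.15 and Psmf1 at 1.88. Subunits that occur in equal number in 1 ring differed widely, from 11.4 CPM per kilobase for Psma5 to 89.9 for Psma4 in the alpha ring, and from 18.1 for Psmb5 to 151 for Psmb6 in the constitutive beta ring. A transcript matched to RefSeq gave each length. At least 1 near-identical copy is annotated for 11 of the 44 members, among them Psma5 and Psmb5 with 2 each and Psma4 and Psmb6 with 1 each. The median log2 fold change was 0.30 over these 11 and 0.16 over the other 33. Exons of 12 members overlap another gene, in 10 of them on the opposite strand (Psma5, Psmb8 and Psmd3 among those described above), and the labels do not say whether the counting used strand.

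Genes that work with the proteasome but carry other symbols were taken from 5 lists, and 0 of their measured members passed in either comparison. For the counts without overlap in these 5 lists, the shares of all genes are 38.6% higher and 11.3% lower. Partners of the particle (13 of 14 listed genes measured) had a median log2 fold change 0.03 below the all-gene median, with 4 higher and 0 lower without overlap. Ube3a, a ubiquitin ligase that binds the proteasome, stood at 6.90 and 7.01 in Control, at 7.75 and 7.39 in mDrp1HET and at 7.22 in the shared library (log2 fold change 0.62, limma adjusted p = 0.213, SE 0.21). Fbxo7, which binds the inhibitor Psmf1, and Sem1, a small subunit of the lid, had values of 0.48 and 0.31. Genes that control proteasome synthesis (8 of 9 measured) had a median 0.32 below all genes, with 2 higher and 3 lower without overlap. In this list Nfe2l1, the gene for Nrf1, stood at 9.06 and 8.95 in Control, at 8.81 and 8.67 in mDrp1HET and at 9.14 in the shared library (log2 fold change -0.26, limma adjusted p = 0.528, SE 0.20), lower in both mDrp1HET libraries but not called. Ngly1, the glycanase that helps activate Nrf1, had 0.34, and the ligase Stub1 had -0.32 with overlapping groups.

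Genes that bring substrates to the particle (17 of 17 measured) had a median 0.27 below all genes, with 3 higher and 5 lower without overlap. Their lowest p belonged to Ubqln4, a shuttle factor, which stood at 6.50 and 6.39 in Control, at 5.49 and 5.85 in mDrp1HET and at 6.34 in the shared library. Its log2 fold change was -0.78 (limma adjusted p = 0.158, SE 0.22), and the shared library lay with Control. Ubxn1, a cofactor of the unfoldase Vcp, and Zfand5, which stimulates the proteasome, had -0.44 and 0.38. Genes of ubiquitin and its activation (6 of 6 measured) had a median 0.45 below all genes, with 0 higher and 2 lower without overlap, among them the activating enzyme Uba1 at -0.23 (SE 0.21). Ubb, a polyubiquitin gene, had -0.27 with overlapping groups. Class I antigen processing genes (12 of 12 measured), which work downstream of the inducible subunits, had a median 0.09 above all genes, with 4 higher and 0 lower without overlap. For H2-D1 and H2-K1, which present the peptides, the log2 fold changes were 0.55 and 0.53 (SE 0.26 for both), and for the loading factor Pdia3 it was 0.45 (SE 0.25).

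The tissue and its makeup were checked with markers. All 13 fibre markers were listed, at summed levels of 300800 and 342600 CPM in Control, 286300 and 271300 CPM in mDrp1HET and 317400 CPM in the shared library. They lay to both sides, 3 higher and 5 lower without overlap (38.6% and 11.3% of all genes). The myosin heavy chains Myh1, Myh2 and Myh4 had log2 fold changes from -1.04 to -0.89. Those of the calcium buffer Pvalb and the light chain Mylpf were 0.63 and 0.56. Fibro-adipogenic markers (9 of 9) had a median log2 fold change 0.48 above all genes and summed to 3023 and 1999 CPM in Control, 3546 and 3856 CPM in mDrp1HET and 2331 CPM in the shared library. Endothelial markers (8 of 8) and smooth muscle and pericyte markers (5 of 6) had medians 0.27 and 0.26 below all genes, with sums that overlapped between the groups. In each of these lists 0 markers lay higher and 1 lay lower without overlap (38.6% and 11.3% of all genes). The lower ones were Kdr among endothelial markers and Myh11, the defining smooth muscle marker, with log2 fold changes of -0.95 and -1.17. All defining markers were listed, C1qb and Cnn1 were not found among the listed genes, and 0 markers were called. Across all genes the log2 fold change was also lower at higher transcript GC content (Spearman -0.39 over 11211 genes, a description), while over the 44 members it was -0.11. Removal of the GC trend called 0 members, and its values for Psma1, Psma5, Psma7, Psmc6, Psmb1, Psmd3 and the core particle are given with them. The part of other cell types and of depth in the members' values was not tested.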

How the data were processed

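Quadriceps RNA of 3 Control and 3 mDrp1HET columns was analysed from 1 deposited table. The authors deposited log2 CPM values per gene and a p-value per gene, per the file headers; the deposited p-values were not used in the results. FastQC, DESeq2 1.30.0 and the build GRCm38 are named in the submitters' processing notes, and no aligner or counter is named in the sources used here. Every value was a whole number of reads at a tolerance of 0.01 reads (100% of values), which gave the read totals. Of the rows, 68 had no symbol and 17 had a symbol that a spreadsheet had made a date, replaced through its Entrez number. No other sample columns were present (0).

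Genes were tested two-sided with limma 3.58.1 (R 4.3.3, intensity trend) on the deposited values, and p was adjusted over 11768 genes by Benjamini-Hochberg with a threshold of 0.05. Fold changes are mDrp1HET minus Control on the log2 scale, with no pseudocount added here. Other settings tried were centring on library medians, quantile normalization, adding 1 or 0.1 CPM, filters at a mean log2 CPM of 1 or 3, array weights and no intensity trend, leaving out each library, removal of the GC trend (loess, span 0.3), limma voom on recovered reads with 2 scalings, and the shared library counted once on either side. Methods were tested on simulated data. Members, lists and tests were chosen with earlier results of these data known. Genes given with every library value are, in each structural group, the 2 with the smallest and the 1 with the largest p, plus the cutting subunits, Psme1 and Psme2, and genes named outside this are said to be so or given by fold change alone. Transcript lengths and copies came from GENCODE M21 (blastn 2.17.0+), positions and promoters from RefSeq GRCm38.p6. The pool of each library was not given, so it entered no model. Protein sequences were not analysed here. For 1 gene of the other lists no value is reported here, though the counts include it.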

Additional observations from a re-analysis of the deposited data

How the results depend on the processing

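With 2 libraries per group, a p that misses the threshold does not show that members did not differ, and 8 of 44 members had under 100 reads in mDrp1HET replicate 2. The count of called members was 0 in the labelled comparison under every alternative, with the lowest adjusted p 0.0591 with array weights and 0.0778 with the shared library counted as Control alone (limma). In the 4-library comparison it was 0 under every alternative except when libraries were left out, where it ranged from 0 to 1, the 1 being Psma7 without mDrp1HET replicate 2, where the lone mDrp1HET library is assumed to vary like Control. The median of the members relative to all genes ranged from -0.08 to 0.07 in the 4-library and from -0.09 to 0.05 in the labelled comparison when libraries were left out. The median of all genes was 0.20 as deposited, 0.035 with median centring and 0.0008 with median-of-ratios size factors. At an unadjusted p under 0.05 the latter put 4 members higher and 5 lower (9.09% and 11.4%, against 7.83% and 9.62% of all genes).

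Over the whole table, the 22 genes called in the 4-library comparison became 0 with median centring, 1 with quantile normalization, 0 without the intensity trend, 6 with the GC trend removed, 51 with voom on recovered reads, 0 with voom on median-of-ratios size factors, and 77 to 325 when single libraries were left out. For the 26 members given in full, the sign turned in 38 of 381 values in the 4-library comparison (12 genes, among them Psmb5, Psmb10, Psmd9, Psme1 and Psme3) and in 55 values in the labelled one (13 genes). The cause was not tested. No paired analysis was possible because the labels give the groups no shared replicate numbers.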
